A study of Mus musculus with 15 samples.

Results

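The genes of glutathione synthesis and recycling are Gclc, Gclm, Gss and Gsr, chosen by function: both subunits of glutamate-cysteine ligase, glutathione synthetase and glutathione reductase. They are 4 of 43626 annotated genes with a value in the deposited tables, and all 4 were among the 11496 genes tested. Glutathione is the tripeptide that cells use to detoxify electrophiles and peroxides. Glutamate-cysteine ligase, made of the catalytic subunit GCLC and the modifier subunit GCLM, joins glutamate to cysteine in the step that limits the rate of synthesis. Glutathione synthetase (GSS) then adds glycine, and glutathione reductase (GSR) uses NADPH to return oxidised glutathione to its reduced form. In the intestine the tripeptide takes part in the defence of the epithelium against reactive compounds from the lumen, and Gclc and Gclm are known targets of the transcription factor NRF2, which binds antioxidant response elements.

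The 15 libraries, 3 in each of 5 groups, hold RNA of the large intestine from male C57Bl/6 mice that were 4 weeks old. The groups received cymopol, a brominated compound known from a green alga, at 1.4 mmol/kg (high dose, replicates 11, 12 and 14) or 0.3 mmol/kg (low dose, replicates 33, 34 and 35), a non-polar algal extract at 1.0 g/kg (high dose, replicates 21, 23 and 25) or 0.3 g/kg (low dose, replicates 26, 27 and 29), or the vehicle alone (replicates 2, 4 and 5). All animals were gavaged on 3 days, 24 h apart, with Chremophor EL plus 10% DMSO as the vehicle, and the intestine was collected 12 h after the final dose. Whether each library is a separate mouse is not stated in the labels, so p-values here cover the spread between the libraries of a group, which may be technical. Values below are given in the order of the replicate numbers above.

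The libraries differed in depth and content in ways that moved with the groups. The estimated number of fragments in protein-coding genes was 288316 to 342028 in high-dose cymopol, 31853 to 183362 in low-dose cymopol, 174904 to 556449 in high-dose extract, 28513 to 106747 in low-dose extract and 25233 to 226553 in vehicle. Annotated genes took 65.2% to 65.4% of all fragments in high-dose cymopol, 44.5% to 71.7% in low-dose cymopol, 56.8% to 64.9% in high-dose extract, 33.3% to 65.9% in low-dose extract and 8.51% to 46.5% in vehicle. Loci outside genes held over 20% of the fragments in 3 libraries, which were vehicle replicates 2 and 5 and low-dose extract replicate 26. Between 10 and 12 of 12 epithelial markers were above 0 in each library. Their summed FPKM (fragments scaled to the length of the transcript and to the size of the library) was 2470 to 2802 in high-dose cymopol, 1007 to 4305 in low-dose cymopol, 2208 to 2655 in high-dose extract, 148 to 4449 in low-dose extract and 294 to 3564 in vehicle. The summed levels of epithelial, smooth muscle, fibroblast, adipocyte and immune markers in each treated group overlapped those in vehicle. In whole tissue, fewer cells of a type and less RNA per cell cannot be told apart. The part of depth, intergenic fragments or cell makeup in the differences below was not tested. Each difference from vehicle was also computed without those 3 libraries, an alternative chosen after seeing the data, which leaves vehicle replicate 4 alone and assumes that it varies like the other groups.

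Most member values stood under identifiers of loci assembled separately in each library, not under the Ensembl identifier. Gclm, Gss and Gsr were read from such a locus in all 15 libraries, and Gclc in 10, with its Ensembl identifier used in the other 5. Those 5 were vehicle replicates 2 and 5, high-dose cymopol replicate 12 and low-dose cymopol replicates 33 and 34. Gclc was at 0.253, 0, 3.02, 0.207 and 10.2 FPKM in them. In both extract groups Gclc came from assembled loci only, and in vehicle from 1 in replicate 4 alone. The part of this in the Gclc differences below was not tested. Each locus had the annotated span of its gene, except Gss in vehicle replicate 4. Gclc (ENSMUSG00000032350) lies at chr9:77754535-77794485 on the plus strand of GRCm38 and has 18 separate exonic blocks with 3766 exonic bases. Gclm (ENSMUSG00000028124) lies at chr3:122245557-122270732 on the plus strand, with 8 exonic blocks and 6291 exonic bases. Gss (ENSMUSG00000027610) lies at chr2:155563181-155592810 on the minus strand, with 14 blocks and 5915 exonic bases. Gsr (ENSMUSG00000031584) lies at chr8:33652523-33698163 on the plus strand, with 15 blocks and 2754 exonic bases. The Gss span shares 22544 bases with Acss2 on the opposite strand, and the Gclm span shares 14775 bases with Gm17494 on the opposite strand and 492 with the pseudogene Gm6061. The use of strand in the authors' quantification is not stated, so reads in these shared stretches cannot be told apart. Acss2, which encodes an acetyl-CoA synthetase, was at 3.38, 14.1 and 9.25 FPKM in high-dose cymopol, 0, 15.1 and 0 in high-dose extract and 3.84, 8.93 and 2.17 in vehicle.

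Promoter sequence was given for 2 of the 4 genes in the RefSeq table used, Gclm and Gss, and is shown because Gclm is known to be controlled through antioxidant response elements. Each run is the 250 bases before the annotated start, from RefSeq on GRCm38.p6, 5′ to 3′ on the strand of the gene, in lower case. Capitals mark a match to TGACNNNGC, the core of that element, searched on both strands. The Gclm window is chr3:122245307-122245556 (plus strand) and the Gss window is chr2:155592811-155593060 (minus strand).
Gclm: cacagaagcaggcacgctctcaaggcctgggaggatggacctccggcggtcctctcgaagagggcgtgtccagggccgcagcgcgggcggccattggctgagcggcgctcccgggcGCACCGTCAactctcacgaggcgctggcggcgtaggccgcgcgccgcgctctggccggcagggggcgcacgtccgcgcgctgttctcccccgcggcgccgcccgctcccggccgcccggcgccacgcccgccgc
Gss: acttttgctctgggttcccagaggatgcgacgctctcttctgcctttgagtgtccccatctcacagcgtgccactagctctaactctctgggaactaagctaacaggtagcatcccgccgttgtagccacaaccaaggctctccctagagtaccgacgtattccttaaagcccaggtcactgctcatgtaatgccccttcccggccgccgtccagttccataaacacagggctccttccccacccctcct
The Gclm window held 1 match, on the strand opposite to the gene, 134 to 126 bases upstream of the start. The Gss window held none, which says only that these letters are not in that window. Of 32851 windows of the same length, 10.2% held the motif. The Gclm window was 78.4% G and C with 41 CpG dinucleotides, and 1.93% of windows had as high a share. The Gss window was 56.0% G and C with 10 CpG dinucleotides, a share reached by 38.7% of windows.

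Gclc, the catalytic subunit, had the widest range of the 4 genes. It was at 22.2, 3.02 and 19.7 FPKM in high-dose cymopol, at 0.207, 10.2 and 20.5 in low-dose cymopol, at 411, 14.9 and 34.5 in high-dose extract, at 0.376, 39.6 and 84.1 in low-dose extract, and at 0.253, 17.1 and 0 in vehicle. The top value was in 1 high-dose extract library, and the libraries listed under 1 FPKM were vehicle replicates 2 and 5, low-dose cymopol replicate 33 and low-dose extract replicate 26. Within its own library the gene stood at the 99.8th, 81.9th and 96.7th percentile of the tested genes in high-dose extract, against the 56.9th, 81.0th and 25.6th in vehicle. The FPKM range of every treated group overlapped that of vehicle, and in high-dose extract the overlap came from replicate 23, which was below vehicle replicate 4. By mean log2(FPKM + 1), the order was high-dose extract (5.94), low-dose extract (4.07), high-dose cymopol (3.64), low-dose cymopol (2.73) and vehicle (1.50), and the ranges of all neighbours in this order overlapped.

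Gclm, the modifier subunit, which raises the affinity of the ligase for glutamate and eases its inhibition by glutathione, was at 12.1, 11.9 and 32.0 FPKM in high-dose cymopol and 1.73, 0 and 22.2 in low-dose cymopol. It was at 110, 32.3 and 30.5 FPKM in high-dose extract, 0, 27.5 and 79.0 in low-dose extract and 5.64, 23.6 and 12.4 in vehicle. All 3 high-dose extract libraries lay above all 3 vehicle libraries, as for 19.3% of all tested genes. No other treated group was apart from vehicle. Its order by mean log2(FPKM + 1) was high-dose extract (5.61), high-dose cymopol (4.15), low-dose extract (3.72), vehicle (3.70) and low-dose cymopol (2.00), with every neighbouring pair of ranges overlapping.

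Gss, which completes the tripeptide, was at 26.9, 15 and 17.6 FPKM in high-dose cymopol, 1.01, 4.59 and 13.2 in low-dose cymopol, 47.0, 12.8 and 17.6 in high-dose extract, 0.85, 12.8 and 81.9 in low-dose extract and 1.19, 7.46 and 21.2 in vehicle. It was the only one of the 4 genes above 0 in all 15 libraries. Its high-dose cymopol libraries lay above all of its low-dose cymopol libraries, as for 9.75% of all tested genes. Its group order was that of Gclm, with means of 4.53 in high-dose extract, 4.34 in high-dose cymopol, 3.68 in low-dose extract, 2.89 in vehicle and 2.44 in low-dose cymopol on the log2(FPKM + 1) scale.

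Gsr, the recycling enzyme, was at 9.27, 25.0 and 15 FPKM in high-dose cymopol, 0, 10.9 and 9.79 in low-dose cymopol, 14.0, 12.4 and 10.1 in high-dose extract, 0.0405, 4.02 and 14.4 in low-dose extract and 0.363, 0 and 10.9 in vehicle. The high doses held the 2 highest group means, 4.02 on the log2(FPKM + 1) scale for cymopol and 3.71 for the extract, against 1.34 for vehicle, which was lowest. Vehicle replicate 5 was above the lowest library of each high dose, so these groups overlapped. The high-dose extract libraries were close to each other, at 12.2 ± 1.97 FPKM (SD, n = 3), whereas Gclc in the same libraries was at 153 ± 223 FPKM (SD, n = 3).

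**Figure D1:**
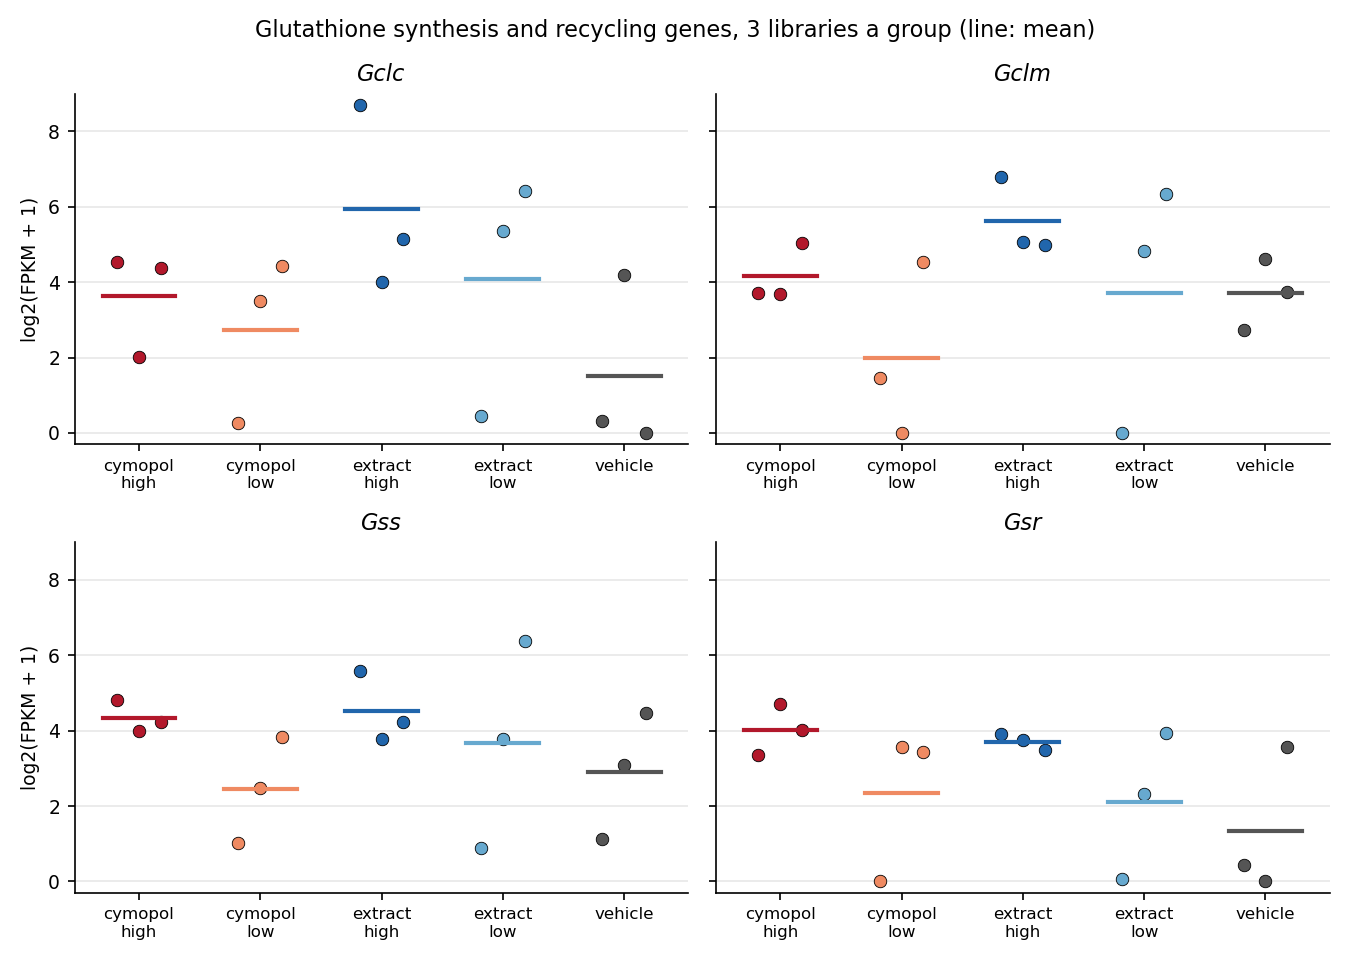
Level of each gene as log2(FPKM + 1) in every library, with groups along the x axis and the group mean as a line. Gclc spans 0 to 411 FPKM over the 15 libraries and Gsr 0 to 25.0 FPKM, and in vehicle 1 library of each of these genes is listed at 0.

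Spread between libraries of 1 group was large for these genes. The pooled SD within groups on the log2(FPKM + 1) scale was 2.37 for Gclc, 1.94 for Gclm, 1.64 for Gss and 1.56 for Gsr, against a median of 1.18 over all tested genes. Gclc stood at the 99.1st percentile of that spread, Gclm at the 95.5th, Gss at the 85.9th and Gsr at the 81.7th. Few fragments were estimated behind many of the values, with a median per library of 48.0 for Gclc, 8.62 for Gclm, 32.4 for Gss and 5.77 for Gsr. An FPKM interval wider than counting error alone gives makes such an estimate too low. Gclm and Gsr each rested on under 10 estimated fragments in 9 of 15 libraries, Gss in 6 and Gclc in 3.

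Set against vehicle, none of the 4 genes passed an adjusted p under 0.05 at the high dose of either agent (limma, two-sided, Benjamini-Hochberg over the 11496 tested genes). In high-dose cymopol 0 of 4 passed, with 0.0174% of all tested genes called. The log2 difference from vehicle was 2.68 ± 1.21 for Gsr (SE, 95% interval 0.22 to 5.14, limma adjusted p = 0.351), 2.14 ± 1.49 for Gclc (-0.89 to 5.17, adjusted p = 0.524), 1.45 ± 1.29 for Gss (adjusted p = 0.617) and 0.45 ± 1.38 for Gclm (adjusted p = 0.893). All 4 differences were above 0 with a median of 1.79, and over all tested genes the median was 0.81 and 79.5% were above 0. Unadjusted p was under 0.05 for Gsr alone among them, as for 1519 of all tested genes. A voom fit on the estimated fragments called 0 of 4, with 1.05% of all tested genes called. Gsr and Gss had an unadjusted p under 0.05 by voom, for which the share of all tested genes was not computed. With the share of fragments in genes as a covariate, chosen after seeing the data, the differences were 0.067 for Gsr, -1.22 for Gclc, -1.93 for Gss and -3.21 for Gclm, against a median of -0.29 over all tested genes, so that 3 of the 4 changed direction. That share was 65.2% to 65.4% in high-dose cymopol and 8.51% to 46.5% in vehicle, without overlap. These values therefore rest on extending a slope fitted within the groups across that gap.

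In high-dose extract 0 of 4 passed, with 0.0087% of all tested genes called. Gclc had a log2 difference from vehicle of 4.44 ± 1.49 (SE, 95% interval 1.41 to 7.47), an unadjusted p of 0.00533 and a limma adjusted p of 0.315. The interval excluded 0 before adjustment, and 99.8% of tested genes had a smaller difference. Gsr differed by 2.37 ± 1.21 (95% interval -0.10 to 4.83, limma adjusted p = 0.452), Gclm by 1.91 ± 1.38 (adjusted p = 0.587) and Gss by 1.64 ± 1.29 (adjusted p = 0.621). The median of the 4 was 2.14, and that of all tested genes was 0.71 with 77.1% above 0. Unadjusted p was under 0.05 for Gclc only, as for 1330 of all tested genes. Voom called 0 of 4, with 1.22% of all tested genes called. By voom Gclc, Gss and Gsr had an unadjusted p under 0.05, for which the share of all tested genes was not computed. The groups of Gclm, 1 of the 4, did not overlap, as was so in the same direction for 19.3% of all tested genes. The Gclc difference was 3.07 without replicate 21 (limma adjusted p = 0.551), and over all alternatives it ranged from 1.41, with the share of fragments in genes as a covariate, to 7.39, with adjusted p between 0.116 and 0.96. With that covariate Gclm was at -1.39, Gss at -1.41 and Gsr at 0.0073. The share in high-dose extract, 56.8% to 64.9%, did not overlap that in vehicle either, so the same limit holds.

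Without the 3 libraries rich in intergenic fragments, the differences of Gsr from vehicle were larger and those of Gclc lower than with all libraries, at both doses of both agents. High-dose cymopol then differed from vehicle by 4.02 for Gsr, 1.26 for Gss, -0.54 for Gclc and -0.47 for Gclm on the log2 scale. High-dose extract then differed by 3.71 for Gsr, 1.76 for Gclc, 1.45 for Gss and 0.99 for Gclm. At the low doses the values were 2.33 for Gsr, -0.64 for Gss, -1.45 for Gclc and -2.62 for Gclm with cymopol, and 3.14 for Gsr, 2.00 for Gss, 1.70 for Gclc and 0.96 for Gclm with the extract. None of the 4 passed, and the lowest limma adjusted p was 0.162, for Gsr in high-dose cymopol. Of all genes tested in that fit, 1.23% were called in high-dose cymopol, 2.91% in low-dose cymopol, 1.64% in high-dose extract and 1.85% in low-dose extract. Gsr is listed at 0 in vehicle replicate 4, the library that remains.

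At the low doses the difference from vehicle was lower than at the high dose for all 4 genes and both agents. The same was so for 76.8% of all tested genes with cymopol and 88.0% with the extract. In low-dose cymopol 0 of 4 passed the limma test, with 0% of all tested genes called and 653 at an unadjusted p under 0.05, of which no member was one. The log2 differences were 1.23 for Gclc, 0.99 for Gsr, -0.46 for Gss and -1.70 for Gclm, against a median of 0.23 over all genes. In low-dose extract 0 of 4 passed the limma test, with 0% of all tested genes called and 450 at an unadjusted p under 0.05, again with no member. Gclc differed by 2.57 (95% interval -0.46 to 5.60, limma adjusted p = 1), Gss by 0.79, Gsr by 0.77 and Gclm by 0.02, against a median of -0.14 over all genes, and 99.4% of tested genes had a smaller difference than Gclc. The 4 comparisons share the same 3 vehicle libraries, so a like direction in them is not independent.

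**Figure D2:**
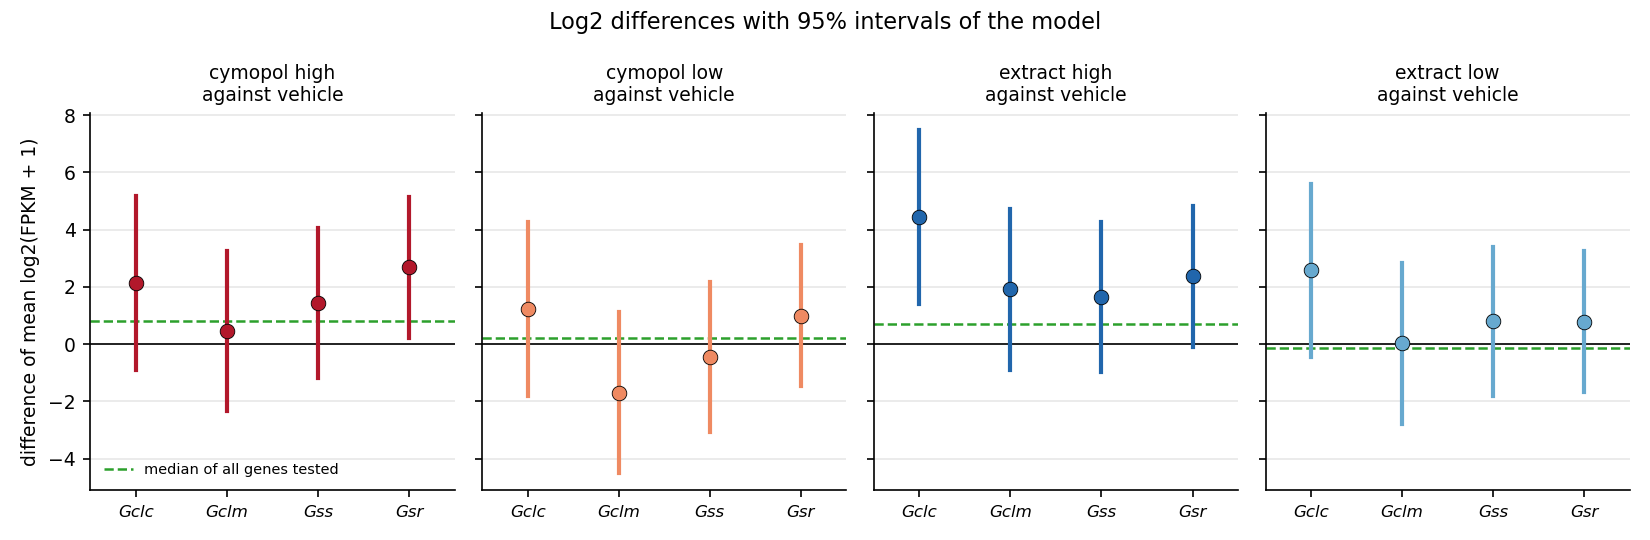
Difference of mean log2(FPKM + 1) from vehicle for each gene at each dose of each agent, with the 95% interval of the model as bars and the median of all tested genes as a dashed line. The interval lies above 0 for Gclc in high-dose extract (1.41 to 7.47) and for Gsr in high-dose cymopol (0.22 to 5.14) before adjustment, and crosses 0 elsewhere.

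None of the 4 genes passed the test between doses or between agents. High against low dose of cymopol gave log2 differences of 0.91 for Gclc, 2.15 for Gclm, 1.90 for Gss and 1.69 for Gsr, of which 0 of 4 passed the limma test with 0.0087% of tested genes called. The median over all tested genes was 0.60. The groups of Gss, 1 of the 4, did not overlap, as for 9.75% of all tested genes in that direction. High against low dose of the extract gave 1.87 for Gclc, 1.89 for Gclm, 0.85 for Gss and 1.60 for Gsr, with 0 of 4 passing and 0.0087% of tested genes called. The median over all tested genes was 0.89 here, which Gss was below. Cymopol at its high dose against the extract at its high dose gave -2.30 for Gclc (95% interval -5.34 to 0.73), -1.46 for Gclm, -0.19 for Gss and 0.31 for Gsr, with 0 of 4 passing and 0.0174% of tested genes called. At the low doses the same contrast of agents gave -1.34 for Gclc, -1.72 for Gclm, -1.24 for Gss and 0.22 for Gsr, with 0 of 4 passing and 0% of tested genes called. The doses of the agents are in different units, so these contrasts are of the groups as dosed. None of the 4 passed the interaction term, which asks whether the step between doses differs between the agents, with 0% of tested genes called. By that term 198 tested genes had an unadjusted p under 0.05 and the 4 log2 values were -0.96 for Gclc, 0.26 for Gclm, 1.05 for Gss and 0.09 for Gsr. In these contrasts of doses and agents no member had an unadjusted p under 0.05 by limma. Voom gave one for Gss between the cymopol doses, Gclm between the extract doses, and Gclc and Gclm between the high doses of the agents. The share of all tested genes with such a p by voom was not computed. Voom rests on the estimated fragments, such as 0.0435 for Gss in low-dose cymopol replicate 33.

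The ratio of the ligase subunits by FPKM differed between libraries. The ratio of Gclc to Gclm FPKM, which are both per length, could be formed in the 12 libraries with both above 0. It was 1.83, 0.254 and 0.617 in high-dose cymopol, 3.72, 0.461 and 1.13 in high-dose extract, and 0.0449 and 0.725 in the vehicle replicates 2 and 4. Over the 12 libraries the median ratio was 0.823, and the catalytic subunit was the higher in 5. Gclc was read by Ensembl identifier and Gclm from an assembled locus in 3 of them. These were vehicle replicate 2 (0.0449), high-dose cymopol replicate 12 (0.254) and low-dose cymopol replicate 33 (0.12). The 3.72 of high-dose extract replicate 21 came with 82.0 estimated fragments for Gclc and 77.3 for Gclm. The part of read-out and scale in these ratios was not tested. Gclm was the most abundant of the 4 genes by FPKM in 6 libraries, Gclc in 4, Gss in 3 and Gsr in 2.

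The size of the Gclc value in high-dose extract depended on the scale. The authors' interval around each FPKM gives an estimate of the fragments behind it, and the 411 FPKM of replicate 21 rested on 82.0 estimated fragments, whereas 34.5 FPKM in replicate 25 rested on 415. Fragments per unit of FPKM were 60.2 times as many in replicate 25 as in replicate 21 for Gclc, against 2.46 times for Gclm, 3.08 for Gss and 2.19 for Gsr in the same pair of libraries. Per 1000000 estimated fragments in protein-coding genes, Gclc was at 484, 73.0 and 151 in high-dose cymopol, 31.4, 397 and 262 in low-dose cymopol, 469, 328 and 1486 in high-dose extract, 499, 541 and 801 in low-dose extract and 77.2, 276 and 0 in vehicle. On this scale the highest Gclc library of high-dose extract was replicate 25, not 21, and both extract groups lay above all vehicle libraries.

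On the same scale Gclm was at 442, 144 and 189 in high-dose extract and 101, 59.4 and 21.0 in vehicle, and Gsr was at 135, 79.7 and 134 in high-dose extract and 0.949, 0 and 42.7 in vehicle. So 3 of the 4 genes, Gclc, Gclm and Gsr, lay above vehicle without overlap in high-dose extract, where 21% of all tested genes did. In low-dose extract 1 of 4, Gclc, did so, where 3.39% of all tested genes did. In high-dose cymopol 1 of 4 lay above vehicle, Gsr at 56.6, 46.2 and 115, where 18.9% of all tested genes did. By FPKM, Gsr overlapped vehicle in both high-dose groups, and Gclc did in both extract groups. The vehicle values on the fragment scale rested on 0.0491, 0 and 1.08 estimated fragments for Gsr. Gclm in vehicle replicate 5 rested on 0.531. Estimates under 1 beside an FPKM above 0 are not numbers of reads. Between the extract doses, Gclm was the 1 of 4 that was higher without overlap in the high dose (18.3% of tested genes). Between the agents, Gclm was lower without overlap in high-dose cymopol than in high-dose extract (1 of 4, 4.68% of tested genes), and Gclc was lower without overlap in low-dose cymopol than in low-dose extract (1 of 4, 1.64% of tested genes).

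**Figure D3:**
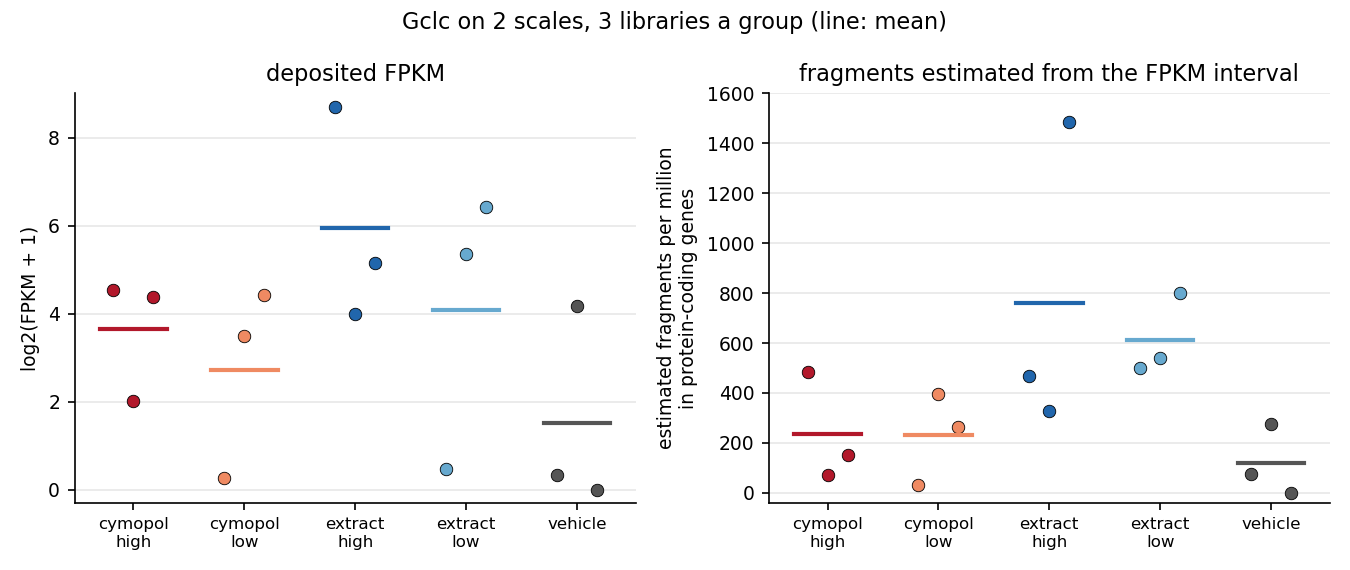
Gclc in every library on the scale of the deposited FPKM (left) and as estimated fragments per 1000000 in protein-coding genes (right), with the group mean as a line. In high-dose extract the top library is replicate 21 at 411 FPKM on the left and replicate 25 at 1486 on the right.

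The Gclc span also held separate short loci that the authors' assembly reported beside the gene. Loci shorter than 5000 bases within the span numbered 7, 8 and 19 in high-dose extract libraries and 1 in each low-dose extract library, against 0 in each vehicle library. High-dose cymopol had 2, 0 and 0, and low-dose cymopol had none. In high-dose extract 6, 8 and 19 of these loci touched no exon, they covered 1872, 2437 and 6488 bases in all, and held an estimated 102, 123 and 281 fragments. The mean number of such loci per protein-coding gene was 0.391, 2.15 and 0.576 in these libraries and 0.901, 1.38 and 0.0798 in vehicle. As many as in Gclc were found in 0.544%, 6.86% and 0.188% of 10664 protein-coding genes in high-dose extract. Gclm held 1, 2 and 0 such loci in high-dose extract and none elsewhere, and Gsr held 2, 3 and 2 in high-dose extract, 1, 1 and 2 in high-dose cymopol and 1, 1 and 0 in vehicle.

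**Figure D4:**
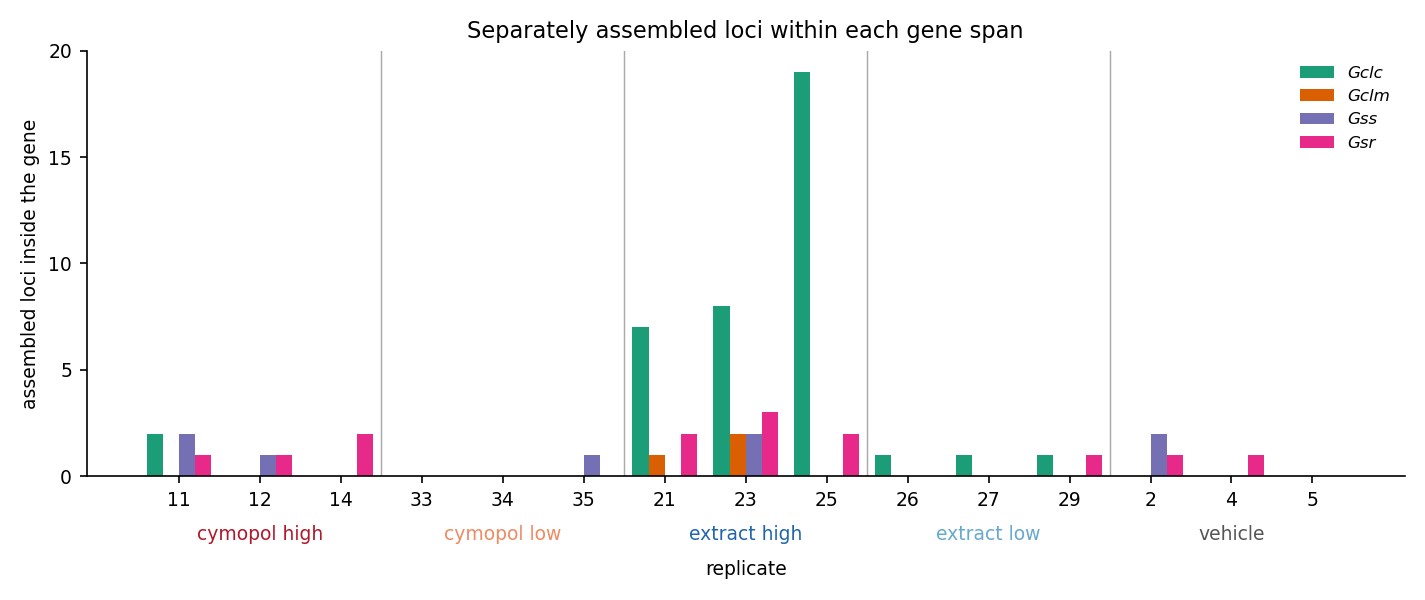
Number of separately assembled loci within the span of each gene (bars, y axis) in each library, with replicates grouped along the x axis by treatment. Gclc holds 7, 8 and 19 in high-dose extract and 0 in every vehicle library.

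Among themselves, the 4 genes varied together over the 15 libraries to different degrees, given here as a description, since the libraries share depth and composition. On the log2(FPKM + 1) scale Pearson's r was 0.73 for Gclc with Gclm, 0.74 for Gclc with Gss, 0.82 for Gclm with Gss, 0.79 for Gss with Gsr, and 0.50 for Gsr with either ligase subunit. Among 10663 other protein-coding genes the patterns most like that of Gclc were those of Pcbp4 (r = 0.87), Psmb4 (0.85) and Adck5 (0.85), and for Gclm those of Arpc3 (0.88), Psmb4 (0.86) and Ap1m1 (0.86). For Gss they were those of Rbbp7 (0.94), Fndc3a (0.94) and Gcnt3 (0.93), and for Gsr they included those of Ndufa1 (0.95) and Rps6ka1 (0.94).

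Genes around the pathway, from lists chosen by function, also gave no call by limma in any comparison with vehicle. For the high doses, the lists are described by the tested members above 0 and their median log2 difference. Over all tested genes, 79.5% were above 0 in high-dose cymopol and 77.1% in high-dose extract. Of these 11496 genes, 1519 had an unadjusted p under 0.05 by limma in high-dose cymopol and 1330 in high-dose extract. Enzymes of NADPH supply, on which GSR depends, were above 0 in 6 of 6 with a median of 2.10 in high-dose cymopol and in 6 of 6 with a median of 1.60 in high-dose extract, and 2 of 6 had an unadjusted p under 0.05 in each. At the low doses the median of this list was 0.91 for cymopol and 0.79 for the extract. Pgd, a dehydrogenase of the pentose phosphate pathway, was at 69.4, 27.8 and 48.9 FPKM in high-dose cymopol, 38.0, 39.2 and 60.1 in high-dose extract and 0.677, 13.3 and 15.2 in vehicle. Its log2 differences were 2.68 for cymopol (limma adjusted p = 0.36) and 2.65 for the extract (limma adjusted p = 0.415). G6pdx, the first dehydrogenase of that pathway, was at 10.1, 10.8 and 7.49 FPKM in high-dose cymopol, 8, 27.5 and 7.47 in high-dose extract and 0, 0 and 5.00 in vehicle, with limma adjusted p = 0.338 for cymopol and 0.359 for the extract.

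Enzymes that use glutathione were above 0 in 13 of 13 tested members at both high doses, with a median of 1.75 in high-dose cymopol and 1.50 in high-dose extract, and 4 of 13 had an unadjusted p under 0.05 in each. Of all 11496 tested genes, 79.5% were above 0 in high-dose cymopol and 77.1% in high-dose extract. An unadjusted p under 0.05 by limma was found for 1519 and 1330 of them. At the low doses the median of this list was 0.95 for cymopol and 0.48 for the extract. Gpx4, a peroxidase of lipid hydroperoxides, was at 10.2, 22.4 and 12.3 FPKM in high-dose cymopol, 15.7, 57.2 and 25.1 in high-dose extract and 0, 1.86 and 0 in vehicle. Gpx2, the gastrointestinal glutathione peroxidase, was at 14.3, 25.9 and 11.3 FPKM in high-dose cymopol and 0.447, 0 and 0 in vehicle, with a log2 difference of 3.92 ± 1.05 (SE, limma adjusted p = 0.19). Esd, a hydrolase of S-formylglutathione, was at 40.1, 40.8 and 21.2 FPKM in high-dose extract and 0, 5.72 and 0 in vehicle (log2 difference 4.16, limma adjusted p = 0.315). The Gpx4 log2 differences were 3.41 for cymopol (limma adjusted p = 0.291) and 4.37 for the extract (limma adjusted p = 0.268). The intervals of Gpx4 and Gpx2 were very wide. The fragment estimate was at most 0.0344 in any library for Gpx4 and at most 0.00286 for Gpx2. Estimates this far under 1 beside FPKM above 0 reflect the width of the interval and are not numbers of reads. These FPKM values are therefore very uncertain.

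Cysteine supply was above 0 in 7 of 7 with a median of 1.42 in high-dose cymopol and in 6 of 7 with a median of 1.45 in high-dose extract. Cth, which releases cysteine from cystathionine, was at 3.83, 17.5 and 6.70 FPKM in high-dose cymopol and 0.543, 0 and 0 in vehicle (log2 difference 2.93, limma adjusted p = 0.293). Its log2 difference in high-dose extract was 2.20, and those of Cbs, which makes cystathionine, were 2.78 in high-dose cymopol and 1.94 in high-dose extract. Glutathione breakdown was above 0 in 5 of 9 with a median of 0.76 in high-dose cymopol and in 4 of 9 with a median of -0.04 in high-dose extract. Cndp2, a dipeptidase that splits cysteinylglycine, had log2 differences of 3.53 in high-dose cymopol and 2.92 in high-dose extract, and Ggt1, which starts the breakdown outside the cell, one of 2.20 in high-dose extract. Anpep, an aminopeptidase of the brush border, was at 0.167, 1.99 and 457 FPKM in high-dose cymopol and 0, 0.358 and 0 in vehicle, with replicate 14 far above the others, and a log2 difference of 3.40. Transport was above 0 in 6 of 6 at both, with medians of 0.70 in high-dose cymopol and 1.42 in high-dose extract. Abcc4, an exporter, had log2 differences of 0.68 in high-dose cymopol and 2.06 in high-dose extract. Of the mitochondrial carrier genes, Slc25a39 had one of 1.76 in high-dose cymopol and Slc25a40 one of 2.30 in high-dose extract. For these genes of supply, breakdown and transport, limma adjusted p was between 0.254 (Cndp2, cymopol) and 0.712 (Abcc4, cymopol). An unadjusted p under 0.05 was found in high-dose cymopol for 2 members of cysteine supply, 3 of breakdown and 0 of transport. In high-dose extract it was found for 1, 1 and 2. Of all 11496 tested genes, 1519 had one in high-dose cymopol and 1330 in high-dose extract, and 79.5% and 77.1% were above 0. Against the medians over all tested genes, 0.81 for high-dose cymopol and 0.71 for high-dose extract, the lists of cysteine supply, glutathione-using enzymes and NADPH supply were above at both, the breakdown list was below at both, and transport was above in high-dose extract only. The genes named from these lists were those with the smallest p at the high doses, so their size is a description.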

How the data were processed

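RNA sequencing tables of 15 libraries, 1 per library, were used. Per the labels' protocols, 90 ng of total RNA was depleted of ribosomal RNA and made into libraries with a low-input kit and Nextera. Per the submitters' processing notes, STAR 2.4.0j and GRCm38.p4 were used. The deposited values are FPKM with a lower and an upper bound, in the columns of a Cufflinks table per the file headers. For its version, settings and strand use, nothing is stated.

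Annotated genes stand by Ensembl identifier, and other loci were assembled per library. A locus was given to a GENCODE M21 gene lacking a value when each was the other's best match and their overlap made up at least 0.5 of the span covered by either. Read by Ensembl identifier alone, 3 of the 4 genes would have no value. Fragments were estimated from the FPKM interval as a Poisson count. They assume that the interval covers counting error only. An interval that holds more than that makes the estimate too low. An estimate under 1 beside an FPKM above 0 is therefore not a number of reads.

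The filter kept genes valued in every one of the 15 libraries with 1 FPKM or more in 3 or more. They were fitted as log2(FPKM + 1) with limma 3.58.1 (R 4.3.3), trend on, 1 mean per group. Tests were two-sided, with calls at p under 0.05 after Benjamini-Hochberg adjustment. Adding 1 understates the change of low genes. With 3 libraries a side the smallest exact p is 0.1. The fit was tested on simulated data. Alternatives were other pseudocounts, filters and scalings, array weights, voom on estimated fragments and each library left out. Added after seeing the data were the share of fragments in genes as a covariate and a fit without the libraries rich in intergenic fragments. Members and lists were chosen with earlier results of these data known. Besides the members, the text names the 2 tested genes of each list with the smallest p at each high dose, and the 3 genes most like each member, of which 1 is not reported here.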

Additional observations from a re-analysis of the deposited data

Results flagged for a closer look

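The numbers of separate loci inside 2 of the genes, which lie outside the measured gene values, were above those in vehicle. Such numbers also varied between libraries, from a mean of 0.0798 per protein-coding gene in vehicle replicate 5 to 2.15 in high-dose extract replicate 23. The share of all genes whose numbers lay above vehicle in every library of a group was not computed. In Gclc high-dose extract had a median of 8 loci (7 to 19) and low-dose extract a median of 1 (1 in each library), against 0 in all 3 vehicle libraries. At least 1 such locus was held by 11.8%, 7.63% and 17.0% of protein-coding genes in the low-dose extract libraries. In Gsr high-dose extract had a median of 2 loci (2 to 3), against 0 to 1 in vehicle, and as many as in Gsr were held by 7.65%, 21.5% and 10.8% of protein-coding genes in the high-dose extract libraries. These are numbers of assembled loci, and their part in the FPKM differences was not tested.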

How the results depend on the processing

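Of 628 values of the 4 genes under alternatives, none passed the threshold, and the lowest adjusted p was 0.116 (Gclc, high-dose extract against vehicle, array weights, limma). Direction held in 558 and reversed in 70, and all reversed values were of differences that did not pass. Gclc in high-dose extract against vehicle never reversed. Without 1 library it ranged from 3.07 (without extract replicate 21) to 5.78 (without vehicle replicate 4). The causes of the reversals were not tested.

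Log2 differences that reversed were as follows. With a pseudocount of 0.1 or 0.01, Gclm in low-dose extract against vehicle was -0.99 and -2.08, and with 0.01 Gsr in low-dose cymopol against low-dose extract was -0.49. With median-of-ratios scaling, Gclm was -0.72 in high-dose cymopol and -0.56 in low-dose extract against vehicle, Gss was -0.56 between the extract doses and Gsr was -0.27 between the agents at low dose. With quantile normalization these values were -0.27, -0.030, -0.36 and -0.50, and Gclm was -0.21 for the difference in dose step between agents. With voom, Gclm was -0.46 in high-dose cymopol and -0.38 in low-dose extract against vehicle, Gclc was -0.029 between the extract doses, Gsr was -0.67 between the agents at high dose, and the difference in dose step was 0.029 for Gclc, -0.61 for Gclm and -0.86 for Gsr.

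The last 2 alternatives were chosen after seeing the data. Without the libraries with over 20% intergenic fragments, high-dose cymopol against vehicle was -0.54 for Gclc and -0.47 for Gclm, low-dose cymopol against vehicle -1.45 for Gclc, the extract doses -0.55 for Gss, the agents at low dose -0.80 for Gsr, and the difference in dose step 0.85 for Gclc. With the share of fragments in genes as a covariate, high-dose cymopol against vehicle was -1.22 for Gclc, -3.21 for Gclm and -1.93 for Gss, and low-dose cymopol against vehicle was -1.14 for Gclc and -0.85 for Gsr. The high-dose extract against vehicle was then -1.39 for Gclm and -1.41 for Gss, low-dose extract against vehicle -2.18 for Gclm, -1.24 for Gss and -0.80 for Gsr, the cymopol doses -0.077 for Gclc, the extract doses -0.17 for Gss and the agents at low dose -0.052 for Gsr.

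Leaving out 1 library reversed these, given as lowest to highest. Against vehicle, Gclm in high-dose cymopol was -0.031 to 0.91, Gss in low-dose cymopol -1.34 to 0.33, and in low-dose extract Gclm was -1.28 to 1.88, Gss -0.56 to 2.19 and Gsr -0.15 to 1.89. Between doses, Gclc for cymopol was -0.32 to 1.76 and Gss for the extract -0.55 to 2.19. Between agents, Gss was -0.56 to 0.34 and Gsr -0.026 to 0.65 at high dose, and Gss -2.64 to 0.10 and Gsr -0.80 to 1.39 at low dose. The difference in dose step was -2.19 to 0.85 for Gclc, -1.04 to 2.12 for Gclm, -0.29 to 2.45 for Gss and -1.08 to 1.12 for Gsr.

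The median log2 difference of all tested genes in high-dose cymopol and high-dose extract against vehicle, 0.81 and 0.71, was 0.24 and 0.25 with median-of-ratios scaling, -0.037 and -0.054 with quantile normalization, and -0.26 and -0.19 with voom. The number of all tested genes called is given over the alternatives apart from the fit that leaves vehicle replicate 4 alone. It ranged from 0 to 121 in high-dose cymopol, 0 to 9 in low-dose cymopol, 0 to 140 in high-dose extract and 0 to 8 in low-dose extract, each against vehicle. The 121 and 140 were with voom. The number called was 0 to 4 between the cymopol doses, 0 to 13 between the extract doses, 0 to 7 and 0 to 1 between the agents at high and low dose, and 0 to 2 for the difference in dose step. With annotated identifiers alone no member had a value in all 15 libraries, so none could be fitted. No paired analysis was possible because the groups share no replicate numbers.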
